A study of Mus musculus with 12 samples.

Results

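The 9 genes described here, Fap, Cthrc1, Lrrc15, Inhba, Ltbp2, Tgfbi, Adam12, Pmepa1 and S100a4, are commonly followed as signs of fibroblast activation. They were picked by gene name out of the 43346 genes in the deposited table, and all 9 passed the filter on low counts that left 18965 genes for testing. RNA came from veins of mice taken 7 days after surgery. The AVF-CKD group (n = 6) was the venous limb of the AVF after AVF-CKD surgery, and the sham group (n = 6) was the jugular vein after sham surgery. The letters, not spelled out in the labels, are taken to stand for arteriovenous fistula, a surgical join of an artery to a vein, and for chronic kidney disease. The sources used here give no strain, sex or age. They also do not say whether the libraries are from different mice, and the p-values therefore reflect only how far these samples spread, which may be technical. Fistula, kidney disease and the vessel named differ between the groups together and cannot be told apart.

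Fibroblasts of the vessel wall take on an activated state after injury, in which they proliferate, lay down matrix and may acquire contractile features. TGF-beta, held latent in the matrix and released by tension or proteases, is a main inducer, acting through receptor kinases and Smad proteins, and activins use the same Smad branch. In a fistula vein this response is studied as part of the outward and inward remodelling that decides whether the vein remains passable. The 9 genes stand at different points of this response. Inhba encodes the activin A subunit, a secreted ligand, Ltbp2 a microfibril protein of the latent TGF-beta binding family, and Pmepa1 a TGF-beta-induced membrane protein that dampens Smad signalling. Cthrc1 and Tgfbi encode secreted proteins of the matrix. Fap, Adam12 and Lrrc15 encode cell-surface proteins: a peptidase that cuts after proline, a metalloprotease with a disintegrin domain, and a leucine-rich repeat protein induced by TGF-beta. S100a4 encodes a small calcium-binding protein, also called fibroblast-specific protein, that leukocytes carry as well.

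The sequences before the transcription start are shown for 4 of the 5 members, of 9, with an entry in the RefSeq promoter set (GRCm38.p6). These are Lrrc15, whose level in AVF-CKD turned on 1 library, Inhba, the member with the lowest level, Tgfbi, with the smallest p of the 9, and S100a4, which ran opposite to Fap and Ltbp2 across libraries. Each runs 5′ to 3′ over the 250 bases before the annotated start, with matches to the motifs searched in capitals.
Lrrc15 (chr16:30283255-30283504, minus strand): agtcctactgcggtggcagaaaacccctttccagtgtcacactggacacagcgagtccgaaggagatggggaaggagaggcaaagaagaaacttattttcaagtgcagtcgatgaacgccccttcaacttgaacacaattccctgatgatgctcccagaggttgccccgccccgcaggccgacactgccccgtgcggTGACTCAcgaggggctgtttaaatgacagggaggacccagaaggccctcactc
Inhba (chr13:16011601-16011850, plus strand): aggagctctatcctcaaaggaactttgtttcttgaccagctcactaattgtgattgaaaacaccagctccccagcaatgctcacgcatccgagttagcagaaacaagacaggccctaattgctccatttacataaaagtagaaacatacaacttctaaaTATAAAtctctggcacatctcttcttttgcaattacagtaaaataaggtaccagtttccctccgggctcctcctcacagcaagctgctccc
Tgfbi (chr13:56609336-56609585, plus strand): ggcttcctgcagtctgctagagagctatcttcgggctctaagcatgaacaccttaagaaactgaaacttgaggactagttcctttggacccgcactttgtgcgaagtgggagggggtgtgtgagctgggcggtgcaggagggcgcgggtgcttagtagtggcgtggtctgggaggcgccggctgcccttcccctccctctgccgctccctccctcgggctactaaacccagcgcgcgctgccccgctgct
S100a4 (chr3:90603520-90603769, plus strand): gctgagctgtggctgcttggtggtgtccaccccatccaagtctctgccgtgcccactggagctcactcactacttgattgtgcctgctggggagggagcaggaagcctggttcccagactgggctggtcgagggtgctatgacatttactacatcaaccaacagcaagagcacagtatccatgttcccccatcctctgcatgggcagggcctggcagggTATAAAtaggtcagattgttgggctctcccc
Searched on both strands were the AP-1 motif TGANTCA, the TEAD motif GGAATG, the palindromic Smad box GTCTAGAC and the TATA box TATAAA, which share no overlapping match here. Lrrc15 held an AP-1 match starting 53 bases before the start, found in 6.75% of all 32851 promoters of this length. S100a4 had a TATA box match starting 31 bases before the start and Inhba one at 91 bases before it, a motif found in 12.4% of promoters. The windows of Tgfbi and Ltbp2 held none of the 4 motifs. The TEAD motif was present in 12.6% and the Smad box in 0.167% of promoters, and neither stood in the windows of the 5 members.

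Total counts ranged from 38.7 to 52.0 M in AVF-CKD and from 43.4 to 60.1 M in sham, so that the 9 genes rested on 421 to 38657 counts per library. Values are CPM, a gene's count relative to its library size after TMM scaling, unless stated. All 8 fibroblast markers and all 8 macrophage markers on the lists were present in every library. The summed fibroblast markers ranged from 36144 to 63476 CPM in AVF-CKD and from 38561 to 62354 CPM in sham. The macrophage markers ranged from 6358 to 11793 CPM in AVF-CKD and from 5920 to 12035 CPM in sham. These sums are not weighted, so the most abundant genes set them. Col3a1, Col1a2 and Col1a1 averaged 24576, 11459 and 8454 CPM in AVF-CKD and 23209, 10950 and 7346 CPM in sham. Lyz2, of the macrophage list, averaged 6551 CPM in AVF-CKD and 5709 CPM in sham. Markers of other tissues were also present. Skeletal muscle markers summed to 634 to 10048 CPM in AVF-CKD and 396 to 10613 CPM in sham, and adipocyte markers to 417 to 918 CPM in AVF-CKD and 543 to 2377 CPM in sham, with the highest adipocyte sum in sham 6. Because these are bulk samples, fewer cells of a type and less RNA per cell cannot be told apart.

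None of the 9 genes differed between the fistula vein and the sham vein at an adjusted p below 0.05 in edgeR's quasi-likelihood test, and 0% of all 18965 genes did (1772 genes, 9.34%, had an unadjusted p below 0.05; DESeq2 called 67 genes higher and 39 lower). The genes did not move as a block: 5 had positive and 4 negative log2 fold changes (AVF-CKD over sham), from -0.35 to 0.34. Their median was 0.02, beside -0.0025 for all genes tested, of which 50.9% were negative. At an unadjusted p below 0.05 there were 1 higher member, Tgfbi, where 5.26% of all genes were higher at that p, and 2 lower members, Cthrc1 and Fap, where the share of all genes was 4.08%. The AVF-CKD and sham libraries overlapped for each of the 9 genes. All 9 genes had a 95% interval that excluded a doubling and a halving of the level in this fit, as 16443 of the 18965 genes did. No gene of the 9 had every AVF-CKD library above every sham library (0.417% of all genes) or below (0.221%). DESeq2 and limma voom with sample weights also called 0 of the 9 and put the same 3 genes below an unadjusted p of 0.05. In edgeR with upper-quartile scaling, or with the filter of 1 CPM in 6 libraries, Fap was no longer below it, while Cthrc1 and Tgfbi were.

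**Figure D1:**
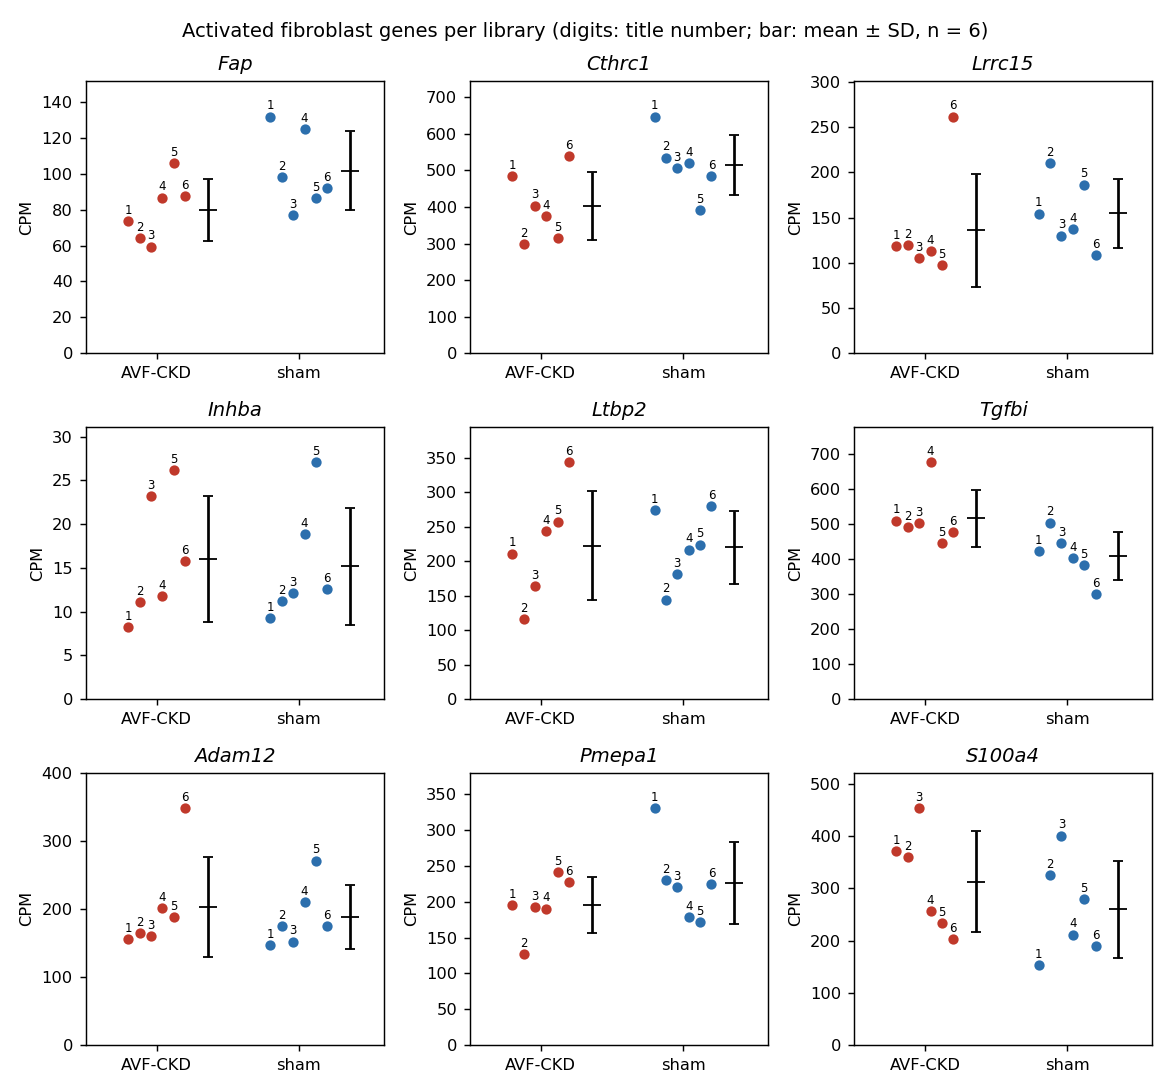
CPM (y axis, from 0) of the 9 genes in each library, AVF-CKD in red and sham in blue, with the title number beside each point and bars for the mean ± SD (n = 6). The groups overlap in every panel, all 6 AVF-CKD libraries lie above the sham median for Tgfbi, and AVF-CKD 6 stands apart at 262 CPM for Lrrc15 and 348 CPM for Adam12.

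Among the genes of ligand handling, Inhba had the lowest counts and a wide spread, with a coefficient of variation of 44.7% in AVF-CKD and 43.9% in sham. It ranged from 8.27 through a median of 13.7 to 26.2 CPM in AVF-CKD and from 9.25 through 12.3 to 27.1 CPM in sham. In both groups a few libraries were high, AVF-CKD 3 and 5 at 23.2 and 26.2 CPM and sham 4 and 5 at 18.9 and 27.1 CPM, and the rest lay at or below 15.7 CPM. The means were 16.03 CPM ± 7.17 in AVF-CKD and 15.2 CPM ± 6.66 in sham (SD, n = 6 each), and the log2 fold change was 0.08 (SE 0.32, edgeR adjusted p = 0.956). Leaving out single libraries moved the fold change of Inhba between -0.11 without AVF-CKD 5 and 0.32 without sham 5. The deposited gene model (GRCm38 chromosome 13, 16011851 to 16027211, 1980 bases) is shorter than the GENCODE M21 gene, which ends at 16031621 and has 6390 exonic bases, and the part beyond it lies outside the deposited model.

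Ltbp2, the microfibril protein (chromosome 12, 84783212 to 84876532), had almost equal means. It averaged 223 CPM ± 79.0 in AVF-CKD and 220.4 CPM ± 52.6 in sham (SD, n = 6 each), with a range of 116 to 344 CPM and a median of 227 CPM in AVF-CKD and a range of 145 to 280 CPM and a median of 221 CPM in sham. The lowest and the highest of the 12 libraries were both fistula veins, AVF-CKD 2 and AVF-CKD 6. The log2 fold change was 0.02 ± 0.23 (SE; edgeR adjusted p = 0.991), and it was -0.15 without AVF-CKD 6 and 0.15 without AVF-CKD 2. Exons of Ltbp2 are overlapped over 9.34% of their length by a model on the opposite strand, and reads of such partners cannot be told apart without strand.

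Pmepa1, the feedback inhibitor (chromosome 2, 173224458 to 173276533), ranged from 127 through a median of 194 to 241 CPM in AVF-CKD and from 172 through 222 to 331 CPM in sham. Sham 1 was the high library, and the other 5 sham libraries lay between 172 and 229.7 CPM, inside the AVF-CKD range. Means were 196 CPM ± 39.5 in AVF-CKD and 226 CPM ± 56.9 in sham (SD, n = 6 each). The log2 fold change was -0.21 ± 0.17 (SE; edgeR adjusted p = 0.747), and it was -0.07 without sham 1.

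Of the 2 secreted matrix genes, Tgfbi averaged higher and Cthrc1 lower in AVF-CKD. Tgfbi (chromosome 13, 56609603 to 56639339) ranged from 445 through a median of 497 to 677 CPM in AVF-CKD and from 299.8 through 412 to 504 CPM in sham. All 6 fistula libraries lay above the sham median and 2 of them, AVF-CKD 1 and 4, above every sham library. Means were 517 CPM ± 81.4 in AVF-CKD and 409.5 CPM ± 68.0 in sham (SD, n = 6 each), a log2 fold change of 0.34 ± 0.13 (SE; 1.26-fold, 95% interval 1.04 to 1.53; unadjusted p = 0.0224, edgeR adjusted p = 0.487). Without AVF-CKD 4, the highest library, the log2 fold change was 0.24, and then none of the 9 genes had an unadjusted p below 0.05.

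Macrophage markers stood at a median sum of 10573 CPM in AVF-CKD and 8227 CPM in sham, with overlapping ranges, and 6 of the 8 had positive and 2 negative log2 fold changes. Across the 12 libraries Tgfbi went with their sum (Pearson r = 0.63, Spearman rho = 0.75, r = 0.48 without the 2 libraries farthest from the median sum) and against that of 6 smooth muscle markers (r = -0.81, rho = -0.80, r = -0.61). Tgfbi also ran against the endothelial sum (r = -0.64, rho = -0.66, r = -0.48) and that of gland and epithelium markers (r = -0.67, rho = -0.53, r = -0.32). Smooth muscle markers summed to a median of 1898 CPM in AVF-CKD and 2271 CPM in sham. Of these 6 markers 4 had negative and 2 positive log2 fold changes. The part of these cells in the difference of Tgfbi was not tested.

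Cthrc1, a secreted protein found around injured arteries (chromosome 15, 39076932 to 39087121), ranged from 299 through a median of 389.9 to 538 CPM in AVF-CKD and from 392.4 through 513 to 648 CPM in sham. In AVF-CKD 5 of 6 libraries lay below the sham median and 3 below every sham library, while AVF-CKD 6 was above the sham median. Means were 403 CPM ± 93.9 in AVF-CKD and 514 CPM ± 82.5 in sham (SD, n = 6 each). The log2 fold change was -0.35 ± 0.16 (SE; 0.783-fold, 95% interval 0.620 to 0.990; unadjusted p = 0.0421, edgeR adjusted p = 0.513), and it moved between -0.45 without AVF-CKD 6 and -0.28 without sham 1.

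Fap, the surface peptidase of activated fibroblasts (chromosome 2, 62500943 to 62574075), averaged 79.6 CPM ± 17.3 in AVF-CKD and 102 CPM ± 21.8 in sham (SD, n = 6 each). Fistula veins ranged from 59.5 through a median of 80.2 to 106 CPM and sham veins from 76.8 through 95.2 to 132 CPM. AVF-CKD 1, 2 and 3 lay below every sham library, and AVF-CKD 5 alone lay above the sham median. The log2 fold change was -0.35 ± 0.16 (SE; 0.782-fold, 95% interval 0.614 to 0.997; unadjusted p = 0.0478, edgeR adjusted p = 0.527), between -0.45 without AVF-CKD 5 and -0.27 without sham 1. With each library left out in turn, the unadjusted p was below 0.05 in 5 of 12 fits for Fap, in 3 of 12 for Cthrc1 and in 11 of 12 for Tgfbi.

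A ratio chosen after the values were seen set each of the 9 genes against fibroblast markers of the same library. Per 1000 CPM of the 8 fibroblast markers, Fap was at 1.38 CPM at the lowest, 1.65 at the median and 1.77 at the highest in AVF-CKD, and 1.96, 2.05 and 2.49 CPM in sham. The groups did not overlap, with every AVF-CKD library below every sham library, as for 0.0844% of all genes set against the same sum (0.0316% had every AVF-CKD library above). Against the 5 markers that are not collagens the ratio was 13.4 to 18.8 CPM in AVF-CKD (median 15.0) and 13.7 to 18.7 CPM in sham (median 16.1), and the groups overlapped (all genes: 0.295% with every AVF-CKD library above and 0.00527% below). The other 8 genes overlapped between the groups under both ratios.

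Adam12 and Lrrc15 shared a library that stood apart. Adam12 (chromosome 7, 133883199 to 134232146) reached 348 CPM in AVF-CKD 6, while the other 5 fistula libraries lay at 155 to 201 CPM, against 146 through a median of 174 to 271 CPM in sham. Lrrc15 (chromosome 16, 30269302 to 30283256) reached 262 CPM in AVF-CKD 6, while the other 5 lay at 97.4 to 119.8 CPM, against 108 through 146 to 210.1 CPM in sham. With all libraries the log2 fold changes were 0.11 ± 0.21 for Adam12 and -0.19 ± 0.24 for Lrrc15 (SE; edgeR adjusted p = 0.903 for Adam12 and 0.848 for Lrrc15). Without AVF-CKD 6 the sign of Adam12 turned, to -0.11 ± 0.15, and Lrrc15 went to -0.48 ± 0.15 (SE, 5 fistula and 6 sham libraries). For Lrrc15 this edgeR fit gave an unadjusted p of 0.00834 and an adjusted p of 0.479. AVF-CKD 6 was singled out by its own Lrrc15 and Adam12 values, so this unadjusted p is not a valid test. Leaving it out took the fistula SD of Lrrc15 from 62.2 to 9.38 CPM. Lrrc15 was below 0.05 in 1 of the 12 fits with a library left out. Of the 19087 genes in this fit, 884 rose and 678 fell with such a p. Lrrc15 was also at -0.08 without sham 2. AVF-CKD 6 had the highest values of Lrrc15, Adam12 and Ltbp2 among the 12 libraries, and the highest sums of fibroblast markers, at 63476 CPM, and of 4 tested osteochondral markers, at 50.7 CPM against 20.9 to 47.1 CPM in the other 11. Whether tissue make-up bears on its values was not tested.

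S100a4 (chromosome 3, 90603770 to 90606045) ranged from 202 through a median of 308 to 454 CPM in AVF-CKD and from 153 through 245 to 402 CPM in sham. AVF-CKD 1, 2 and 3 and sham 2 and 3 were at 326 to 454 CPM, and the other 7 libraries of both groups at 153 to 279 CPM. Means were 313 CPM ± 97.1 in AVF-CKD and 260.0 CPM ± 93.4 in sham (SD, n = 6 each), and the log2 fold change was 0.27 with an SE of 0.25 (edgeR adjusted p = 0.779); it was 0.13 without AVF-CKD 3 and 0.43 without sham 3. Its counts are uncertain, since GENCODE M21 places another model over 51.7% of its exonic bases.

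**Figure D2:**
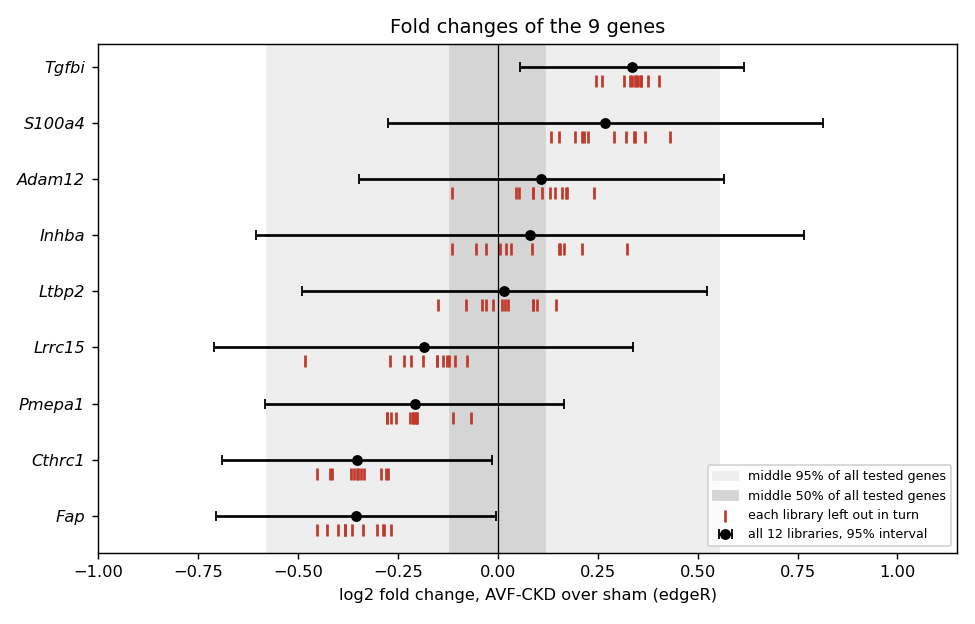
Log2 fold change of AVF-CKD over sham (x axis) for the 9 genes (y axis), with the 95% interval of the edgeR fit on all 12 libraries in black and, in red, the value with each library left out in turn. Grey bands hold the middle 50% (-0.12 to 0.12) and middle 95% (-0.58 to 0.55) of all tested genes, and all 9 points lie inside the wider band.

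Levels per length were compared on the deposited RPKM scale, reads per kilobase of the deposited gene length, scaled to library size. The order from the top was S100a4, Cthrc1, Tgfbi and Pmepa1 in both groups. S100a4 averaged 458 RPKM ± 148 in AVF-CKD and 379 RPKM ± 133 in sham (SD, n = 6 each), and Cthrc1 233 RPKM ± 56.1 in AVF-CKD and 298 RPKM ± 45.9 in sham. Tgfbi averaged 165 RPKM ± 26.9 in AVF-CKD and 131 RPKM ± 19.7 in sham, and Pmepa1 34.0 RPKM ± 6.47 in AVF-CKD and 39.5 RPKM ± 9.89 in sham. S100a4 was above Cthrc1 in 5 of 6 fistula and 4 of 6 sham libraries, so these neighbours were not apart beyond their spread. Cthrc1 was above Tgfbi, and Tgfbi above Pmepa1, in all 12 libraries. In AVF-CKD 4, however, Cthrc1 and Tgfbi were almost equal, at 217.0 and 215.8 RPKM. Their order also depends on the deposited lengths, 1480 bases for Cthrc1 and 2678 for Tgfbi. GENCODE M21 gives 1593 and 3771 exonic bases. Ltbp2, Lrrc15 and Adam12 had means between 19.5 and 24.9 RPKM and overlapped. Ltbp2 and Lrrc15 exchanged places between the groups, and Adam12 came after both in each group. Fap, at 12.01 RPKM ± 2.40 in AVF-CKD and 15.4 RPKM ± 3.28 in sham, was above Inhba in 5 of 6 AVF-CKD and 6 of 6 sham libraries. Inhba averaged 6.89 RPKM ± 2.97 in AVF-CKD and 6.60 RPKM ± 2.99 in sham over the shorter deposited model.

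**Figure D3:**
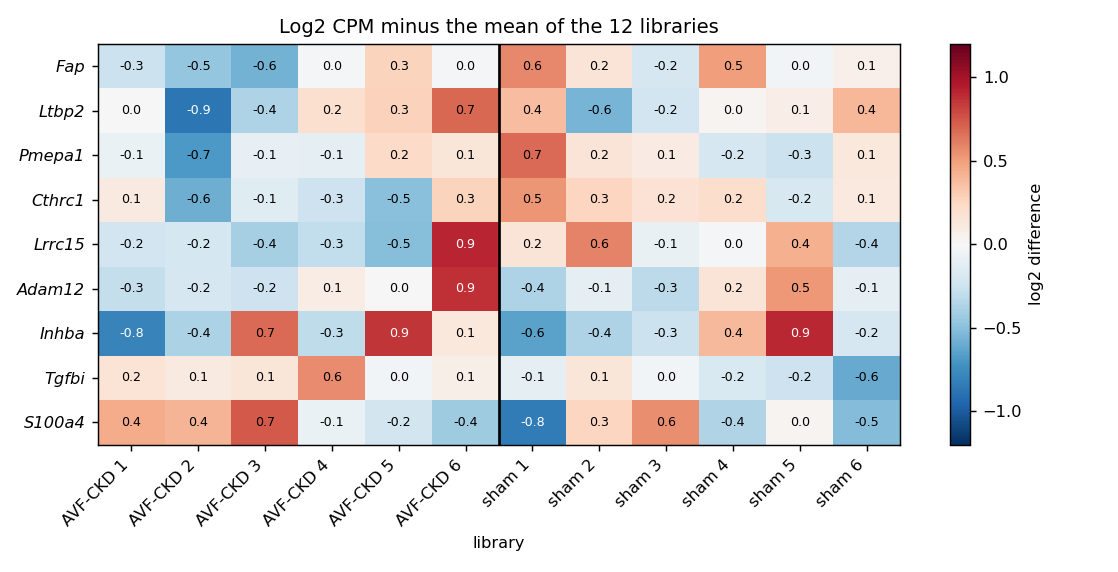
Log2 CPM of each gene (rows) minus its mean over the 12 libraries (columns, AVF-CKD left and sham right of the black line), red above and blue below that mean. AVF-CKD 6 is the highest library for Ltbp2, Lrrc15 and Adam12, AVF-CKD 2 is the lowest library for Ltbp2, Pmepa1 and Cthrc1, and the S100a4 row runs opposite to the Fap row.

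As a set, the 9 genes did not vary together from library to library. Over the 36 pairs the Pearson correlation of log2 CPM across the 12 libraries had a median of -0.01 and ranged from -0.83 to 0.65, with 18 pairs positive and 6 above 0.5. Fap, Cthrc1, Ltbp2 and Pmepa1, grouped after the values were seen, were positive in each of their mutual pairs, at r from 0.37 to 0.65. Within AVF-CKD, however, Fap with Cthrc1 was at -0.01. These are descriptions of 12 libraries whose tissue make-up differs. The closest pair was Cthrc1 with Pmepa1 (r = 0.65, rho = 0.55), followed by Lrrc15 with Adam12 (r = 0.64, rho = 0.29) and Fap with Pmepa1 (r = 0.61, rho = 0.59). The pair of Lrrc15 and Adam12 rested on few libraries, with r = 0.43 without the 2 farthest from the median of Lrrc15. At the other end, S100a4 ran against Fap (r = -0.83, rho = -0.82, and r = -0.66 without the 2 libraries farthest from the median of Fap) and against Ltbp2 (r = -0.76, rho = -0.83, r = -0.80). Within the groups the correlation of Fap with S100a4 was -0.88 in AVF-CKD and -0.78 in sham (n = 6 each). For Inhba and Adam12 r was 0.15 within AVF-CKD and 0.96 within sham (n = 6 each), a difference that was not tested. Other pairs lay farther apart, among them Inhba with Pmepa1 (0.50 within AVF-CKD, -0.88 within sham) and Cthrc1 with Adam12 (0.52 within AVF-CKD, -0.82 within sham). Among sham libraries, Inhba and Adam12 were both highest in sham 4 and 5. Inhba was there at 18.9 and 27.1 CPM and Adam12 at 210 and 271 CPM. The r of 0.96 was not recomputed without them.

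**Figure D4:**
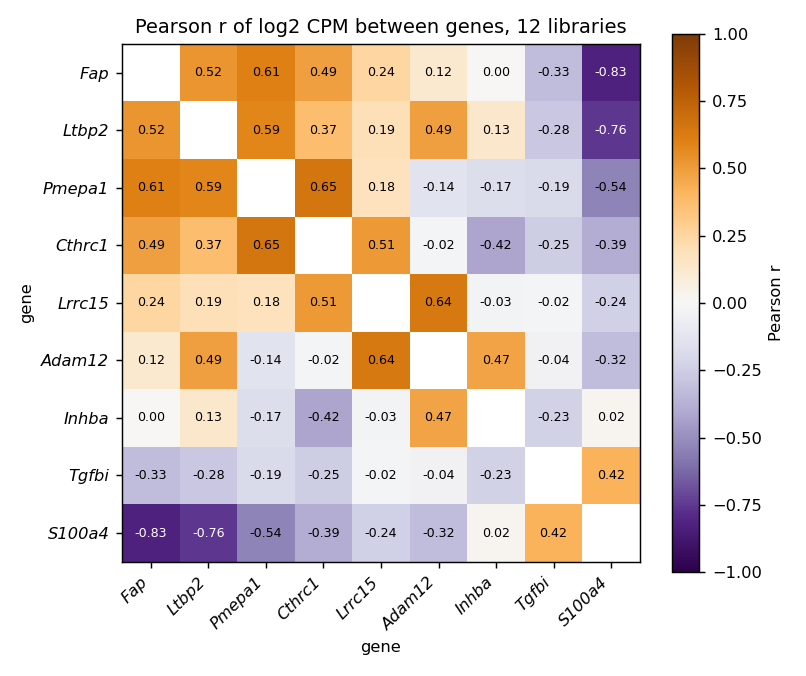
Pearson r of log2 CPM over 12 libraries for each pair of the 9 genes, listed on both axes, orange for positive and purple for negative values. The lowest values, -0.83 and -0.76, are those of S100a4 with Fap and Ltbp2, and the highest, 0.65, that of Cthrc1 with Pmepa1.

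Set beside the marker sums, S100a4 followed the macrophage list (r = 0.86, rho = 0.81, and r = 0.89 without the 2 libraries farthest from the median sum) and ran against the fibroblast list (r = -0.80, rho = -0.82, r = -0.73). Fap showed the reverse, with r = 0.73 for fibroblast markers (rho = 0.78, r = 0.76) and -0.63 for macrophage markers (rho = -0.57, r = -0.67). Ltbp2 had r = 0.69 for fibroblast (rho = 0.73, r = 0.57) and -0.77 for macrophage markers (rho = -0.86, r = -0.76). Its closest positive match among the marker lists was that of 4 tested Schwann cell markers (r = 0.75, rho = 0.82, r = 0.82), which summed to 2.79 to 18.9 CPM in AVF-CKD and 3.55 to 11.8 CPM in sham, and it had r = -0.71 for T and NK cell markers (rho = -0.72, r = -0.63). S100a4 had r = -0.69 for the Schwann cell list (rho = -0.71, r = -0.67) and 0.65 for the T and NK cell list (rho = 0.65, r = 0.60). Inhba and Adam12 went with the osteochondral list, of which Acan was the most abundant gene. For Inhba r was 0.74 (rho = 0.71, r = 0.82) and for Adam12 0.71 (rho = 0.62, r = 0.58). All these sums share libraries and scaling with the genes. The fibroblast sum was mostly collagen counts and the macrophage sum mostly Lyz2 counts, so these values largely describe those genes. The 3 genes nearest to S100a4 by Pearson r were Ccl6 (0.96) and Ccl9 (0.96), chemokine genes of myeloid cells, and Arpc5 (0.96). They are the highest of a search over the tested genes. The part of these cells in the values of S100a4, Fap, Ltbp2, Inhba and Adam12 was not tested.

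**Figure D5:**
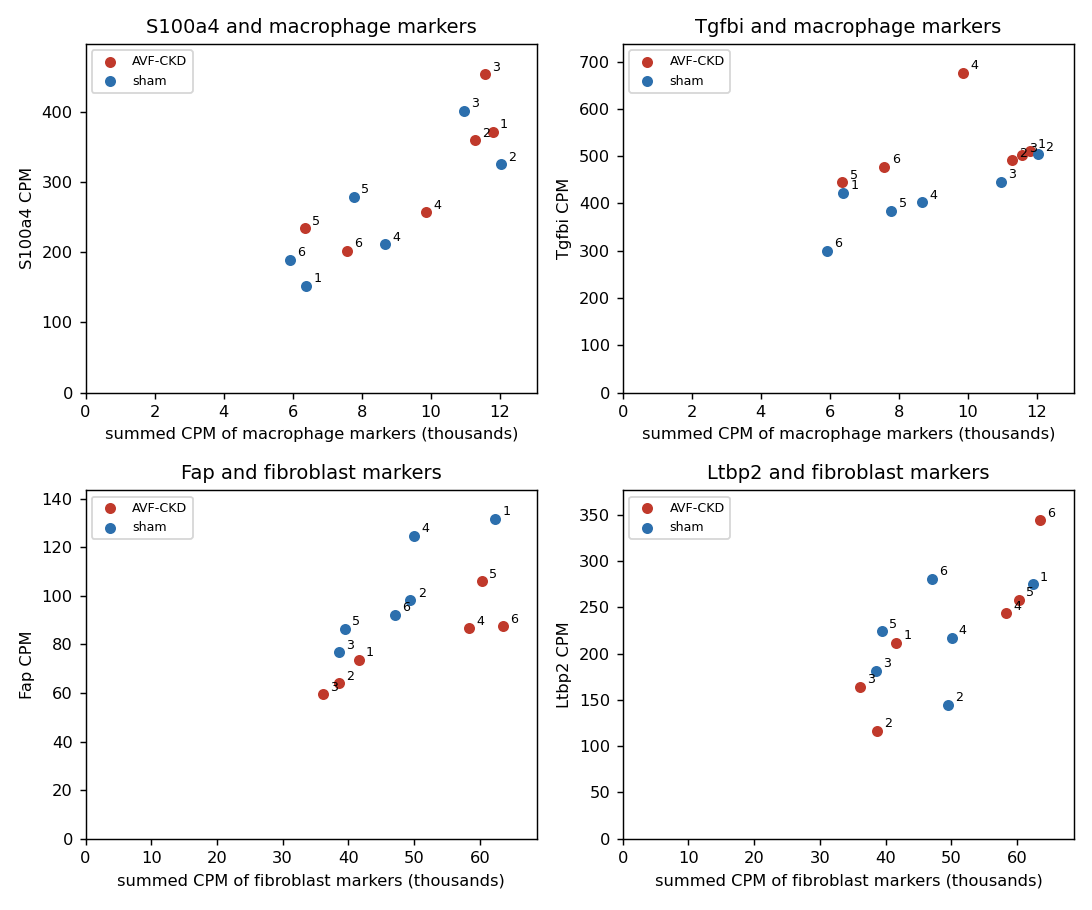
CPM of S100a4 and Tgfbi against the summed CPM of 8 macrophage markers (top) and of Fap and Ltbp2 against that of 8 fibroblast markers (bottom), one point per library with its title number, AVF-CKD in red and sham in blue. The 5 libraries with the highest macrophage sums (10965 to 12035 CPM) hold the highest S100a4 values (326 to 454 CPM), and Fap is lowest in AVF-CKD 3, which has the lowest fibroblast sum at 36144 CPM.

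Genes with the most similar patterns differed from member to member. Fap was closest to Tmem136 (r = 0.95), Igf1 (0.93), which encodes a growth factor, and Dzip1 (0.92). For Cthrc1 they were Kcne1l (0.93), C1qtnf3 (0.89) and Tmem45a (0.88), and for Lrrc15 they were Fbxl13 (0.92), Parp8 (0.92) and Lrrc17 (0.91). Adam12 lay closest to Creb3l1 (0.95), Adam19 (0.95), another membrane metalloprotease, and Slc35e1 (0.93). The nearest to Ltbp2 were Piezo2 (0.95), a stretch-gated channel gene, Syt11 (0.93) and Myo1d (0.93), and to Pmepa1 Syngr3 (0.90), Mxra7 (0.90) and Adamts10 (0.90). Inhba was nearest to Sh3bgrl2 (0.92), Azin1 (0.92) and Klhl9 (0.90). Tgfbi was nearest to the receptor genes Ifnar1 (0.97) and Il17ra (0.97) and to Ttc7 (0.96). Low levels were seen for Kcne1l, at 0.64 CPM in AVF-CKD and 0.84 CPM in sham, and for Syngr3, at 0.69 CPM in AVF-CKD and 0.84 CPM in sham (means).

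The mean of the 9 standardised profiles was lowest in AVF-CKD 2, at -0.84, and highest in AVF-CKD 6, at 0.75, with sham between -0.32 and 0.26. The 10 genes that followed it best were Thbs2, Nphp4, Copg1, Col5a2, Adnp, Ikzf4, Dnajc3, Six2, Nrg1 and Adamts6, at r from 0.85 to 0.89. Of these Thbs2 and Col5a2 encode matrix proteins. The 5 that ran most against it were Glns-ps1, Slc10a6, Mrps9, Commd10 and Akap7, at r from -0.86 to -0.82. Both sets are the extremes of a search over the tested genes on 12 libraries. Unrelated genes can also reach such values in a search of this size. Without the 2 libraries farthest from the median the correlation of Thbs2 was 0.69 and that of Mrps9 was -0.46.

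Other genes of the activated state were tested in a wider list of 32. In it 9 were positive and 23 negative, with a median of -0.07 and 0 called. At an unadjusted p below 0.05, 1 was higher and 2 lower. Of all genes tested, 5.26% were higher and 4.08% lower at that p, shares that also stand beside the lists that follow. Pdpn, the podoplanin gene, was higher at 0.22 ± 0.08 (log2, SE). Aspn, a small leucine-rich proteoglycan gene, had 860 CPM ± 268 in AVF-CKD and 1272 CPM ± 268 in sham (SD, n = 6 each; log2 fold change -0.56 ± 0.20, edgeR adjusted p = 0.461), and Postn, the periostin gene, was at -0.45 ± 0.17. Col3a1, its most abundant member, was at 0.08 ± 0.19. The median of this list was -0.24 without AVF-CKD 6 and -0.02 without AVF-CKD 3. Of 18 resting fibroblast genes 6 were positive and 12 negative (median -0.16), with 1 higher, Cd248, an endosialin gene, at 0.37 ± 0.12, and 1 lower, Mfap5, at -0.30 ± 0.11, at an unadjusted p below 0.05. Neither passed over all genes, and Dcn, the most abundant, was at -0.29 ± 0.19.

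Around Inhba, 15 of the 17 listed genes of the activin and inhibin system were tested, 8 positive and 7 negative (median 0.02). Inhbb, the activin B subunit gene, averaged 12.4 CPM ± 3.09 in AVF-CKD and 9.002 CPM ± 1.57 in sham (SD, n = 6 each; log2 fold change 0.46 ± 0.17, edgeR adjusted p = 0.464). Acvr1c, an activin-type receptor gene of fat, was the 1 with a lower value at an unadjusted p below 0.05 (-0.996 ± 0.459, with 5.40 CPM ± 2.95 in AVF-CKD and 10.8 CPM ± 8.44 in sham), in libraries whose adipocyte marker sum had medians of 542 CPM in AVF-CKD and 817 CPM in sham. Its relation to fat was not tested. Smad4, the most abundant, was at 0.03 ± 0.06.

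Around Pmepa1, 18 genes of TGF-beta response and feedback split into 10 positive and 8 negative (median 0.05), with 0 called. Bhlhe40, a transcriptional repressor gene, had the smallest p, at 102 CPM ± 13.1 in AVF-CKD and 81.3 CPM ± 11.6 in sham (SD, n = 6 each; log2 fold change 0.33 ± 0.11, edgeR adjusted p = 0.443). Ccn2 and Thbs1, which TGF-beta is known to induce, were at -0.10 ± 0.29 and 0.07 ± 0.36 on the log2 scale (SE). These errors are wide, and 17 of the 18 intervals lay within 2-fold.

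Around Ltbp2, 14 genes of latent TGF-beta binding and microfibrils had 5 positive and 9 negative values (median -0.15). At an unadjusted p below 0.05, 1 was higher (5.26% of all genes), the ligand gene Tgfb1 (0.25 ± 0.09). At that p 3 were lower (4.08% of all genes), the microfibril genes Mfap2 (-0.34 ± 0.10), Mfap4 (-0.59 ± 0.25) and Mfap5. Mfap5 is the same gene as in the resting fibroblast list. Mfap2 averaged 78.1 CPM ± 6.62 in AVF-CKD and 98.7 CPM ± 16.8 in sham (SD, n = 6 each; edgeR adjusted p = 0.407). The other family members Ltbp1, Ltbp3 and Ltbp4 were at -0.03 ± 0.18, -0.09 ± 0.16 and 0.05 ± 0.25, and Eln, the elastin gene, was the most abundant, at -0.23 ± 0.33.

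Relatives of the remaining members were also tested. Of 10 ADAM genes 8 were positive (median 0.11), and Adam8, a metalloprotease gene of leukocytes, was the 1 below an unadjusted p of 0.05, at 116 CPM ± 41.1 in AVF-CKD and 76.8 CPM ± 14.2 in sham (SD, n = 6 each; log2 fold change 0.59 ± 0.21, edgeR adjusted p = 0.447). Adam15, the most abundant, was at 0.05 ± 0.08. Among 8 post-proline peptidase genes related to Fap, 6 were positive (median 0.07) and Dpp9 had the smallest p, with 49.95 CPM ± 3.34 in AVF-CKD and 42.4 CPM ± 2.89 in sham (SD, n = 6 each; 0.24 ± 0.06, edgeR adjusted p = 0.390). Dpp4, the closest relative of Fap, was at -0.05 ± 0.23 and Prcp, the most abundant, at 0.0022 ± 0.079.

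Of 10 tested S100 genes 8 were negative (median -0.15), none had an unadjusted p below 0.05, S100a13 had the smallest p (-0.23 ± 0.12) and S100a6, the most abundant, was at -0.01 ± 0.14. Among the 3 FAS1-domain relatives of Tgfbi, Stab1, a scavenger receptor gene, averaged 391 CPM ± 29.4 in AVF-CKD and 321 CPM ± 29.8 in sham (SD, n = 6 each; 0.28 ± 0.08, edgeR adjusted p = 0.399). Postn, counted in the wider list of activated genes too, and Stab2 were negative. In the list of 8 non-canonical Wnt genes tied to Cthrc1 2 were positive and 6 negative (median -0.09). Fzd3, a frizzled receptor gene, had every AVF-CKD library below every sham library, as 0.221% of all genes did, at 1.31 CPM ± 0.29 in AVF-CKD and 2.09 CPM ± 0.19 in sham (SD, n = 6 each; -0.68 ± 0.16, edgeR adjusted p = 0.390), and Ryk, the most abundant, was at -0.12 ± 0.07. DESeq2 called Stab1 (adjusted p = 0.0423) and Fzd3 (adjusted p = 0.0195), which edgeR did not.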

How the data were processed

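RNA of 12 mouse vein samples, 6 AVF-CKD and 6 sham, was prepared with the TruSeq RNA Sample Prep Kit v2, per the labels' protocols, a kit that does not mark strand. The deposited table held a whole-number read count and an RPKM value per gene and library, with a gene length. The submitters' processing notes name GRCm38, TopHat2 2.1.0, featureCounts and edgeR. Their roles, the annotation, any strand setting and any read filter are not given in the sources that were used. The deposited counts were tested as they stand, and the deposited RPKM values were used only to order genes by level.

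Counts were filtered with filterByExpr (minimum count 10), scaled by TMM and entered in the quasi-likelihood test of edgeR (version 4.0.16, under R 4.3.3) on the 2 groups, with Benjamini-Hochberg adjustment over 18965 genes. The biological coefficient of variation was 24.2%. Steps were tested on simulated data. Log2 CPM used a prior count of 2. The alternatives were other scalings and filters, limma 3.58.1 voom with sample weights, DESeq2 1.42.0, the title number as a block, and leaving out each library. All 66 library pairs differed by more than sampling noise (chi-square over its degrees of freedom at least 44.4). The 95% intervals are those of the fold change between groups, and their width reflects the spread between libraries.

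The members and lists were chosen with earlier results of these data known. The text names all members, the 3 genes nearest to each, the genes nearest and most opposite to their mean (10 and 5), and from each list the most abundant gene and the one with the smallest p. Other list genes were named after their values were seen. The values of 1 further gene, counted in its list, are not reported here. Exon overlaps come from GENCODE M21.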

Additional observations from a re-analysis of the deposited data

Results flagged for a closer look

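In 42 groups of 6 values (9 genes, 11 summed marker lists and the total count, by group), 9 held a library whose distance from its nearest neighbour, as a share of the whole range, was past Dixon's 95% critical value. Chance alone would mark about 1 group in 20 if the values were normally distributed and the groups independent. CPM and marker sums can be skewed and the groups share libraries, so that rate is only a rough guide. Among the genes, AVF-CKD 6 had 262 CPM of Lrrc15, beside 97.4 to 119.8 CPM in the other 5 fistula libraries, and 348 CPM of Adam12, beside 155 to 201 CPM. AVF-CKD 4 had 677 CPM of Tgfbi, beside 445 to 510.4 CPM in the other 5. Sham 1 had 331 CPM of Pmepa1, beside 172 to 229.7 CPM in the other 5 sham libraries.

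Among the marker sums, AVF-CKD 2 had 11.4 CPM of gland and epithelium markers, beside 3.29 to 5.19 CPM in the other 5 fistula libraries, and AVF-CKD 5 had 18.9 CPM of Schwann cell markers, beside 2.79 to 8.50 CPM. Sham 4 had 10613 CPM of skeletal muscle markers, beside 396 to 4182 CPM in the other 5 sham libraries. Sham 6 had 2377 CPM of adipocyte markers, beside 543 to 1114 CPM, and 33.6 CPM of gland and epithelium markers, beside 1.79 to 7.40 CPM.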

How the results depend on the processing

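None of the 9 genes was called in any of the settings run. Over all genes edgeR called 0, while DESeq2 called 67 higher and 39 lower, among them Stab1 of the FAS1-domain list and Fzd3 of the Wnt list (1 called in each), and had an undefined adjusted p for 1857 genes. Leaving out 1 library gave 0 to 1 genes called higher (Il6ra without AVF-CKD 3) and 0 to 0 lower. At an unadjusted p below 0.05 it gave 654 to 1172 higher and 588 to 960 lower. The median log2 fold change of the 9 genes then ranged from -0.15 without AVF-CKD 6 to 0.15, and the number of negative members from 4 to 6. Signs turned for 3 genes with small fold changes, and the cause was not tested: Adam12 between -0.11 and 0.24, Inhba between -0.11 and 0.32, and Ltbp2 between -0.15 and 0.15 when single libraries were left out. With limma voom Inhba was at -0.11 and Ltbp2 at -0.040. Same-numbered libraries had correlations of their deviations from -0.11 to 0.28, with 2 of 6 AVF-CKD libraries closest to the sham library of their own number. The labels do not say what the numbers stand for, and they were not treated as pairs. With the replicate block 0 genes were called, 1166 genes higher and 892 genes lower had an unadjusted p under 0.05, and Ltbp2 was at -0.029. The median of the TGF-beta response list was -0.04 without AVF-CKD 5 and -0.02 without AVF-CKD 6.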
